A study of Prunus sibirica with 6 samples.

Results

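The nuclear genes for proteins of plastid and mitochondrial ribosomes were followed in frosted flowers of Prunus sibirica, the Siberian apricot. They were taken from the deposited gene table by its descriptions. A gene was included if it was described as a 30S, 50S, 28S, 39S, 54S or 37S ribosomal protein, or as a ribosomal protein together with the word mitochondrial or chloroplastic. This gave 104 of 31889 genes. The description named the plastid for 40 of them (13 of the small subunit and 27 of the large subunit) and the mitochondrion for 28 (12 small, 16 large). A further 31 were 30S or 50S proteins with no compartment named (7 small, 24 large), and S16-2 (PARG27633) was given to both organelles. The other 4 were not ribosomal proteins by name and had matched through a listed protein domain: 2 manganese superoxide dismutases, syntaxin-52 and the chaperone dnaJ A6.

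RNA was sequenced from floral organs at the blooming stage, taken after natural frost at -4 °C. There were 3 libraries of clone 338, described as strongly frost resistant, and 3 libraries of clone 28, described as weakly resistant. Each group is a single clone, no unfrosted flowers were analysed here, and the labels do not say whether replicates are different trees. The p-values therefore cover the spread among these libraries, which may be technical. Libraries of clone 338 are called strong 1, 2 and 3 and those of clone 28 weak 1, 2 and 3, with the numbers of the labels.

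Plant cells make protein on 3 kinds of ribosome. Those of the cytosol have subunits named 40S and 60S, while those of plastids and mitochondria are of the bacterial type. Plastid ribosomes translate the plastid's own genes, which include core subunits of the photosystems, and mitochondrial ribosomes translate subunits of the respiratory chain. Most proteins of both organelle ribosomes are encoded in the nucleus, made in the cytosol and imported. Genes for S10, S14, S19 and L2 of the mitochondrial ribosome have moved to the nucleus in several lineages of flowering plants. No sequences of these genes were used here.

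Levels are FPKM, fragments normalised to gene length and to an effective size of each library, and can be compared between genes. Differences are strong minus weak on the scale log2(FPKM + 1), with the standard error of a limma fit over all 16462 genes that reached 1 FPKM in at least 3 of the 6 libraries. A gene is said to have risen or fallen in the strong clone where its adjusted p (Benjamini-Hochberg, limma, two-sided) was below 0.05. Of the 104 genes, 94 were tested. The 10 others comprised 7 plastid-named and 3 mitochondrial-named genes and are given at the end.

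The libraries held 16367632 to 18866306 reads, and 1 read in a gene of 1 kilobase was worth 0.0372 to 0.0965 FPKM. Weak library 3 stood apart from the other weak libraries. Over the 94 tested genes its mean absolute log2 difference was 0.34 to 0.44 from the strong libraries, against 1.17 and 1.30 from weak libraries 2 and 1, while weak 1 and weak 2 were 0.39 apart. Over all tested genes weak 3 also lay nearer to the strong libraries, at 0.46 to 0.58, against 0.88 and 0.96 from weak 2 and weak 1. Of the 94 genes, 81 were higher in weak 3 than in both other weak libraries (86.2%, against 45.2% of all genes). For the tested genes of cytosolic ribosomal proteins that share was 90.2%. The SD of the log2 values was larger among the weak libraries for 89 of the 94 (94.7%, against 86.8% of all genes). The median SD was 0.18 for the strong clone and 0.69 for the weak clone, against 0.19 and 0.49 over all genes. Lists of genes of other kinds were summed too, and of the sums given here only that of the photosystem list did not overlap between the clones. A pollen list of 124 genes took words such as pollen or anther-specific anywhere in the description. It thus held genes named otherwise, such as expansins, that need not be particular to pollen. Its summed level was 9066 to 17713 FPKM in strong libraries and 15794 to 49758 FPKM in weak libraries. Of its 69 tested genes, 8 passed the threshold (1 higher, 7 lower, 11.6% against 15.3% of all genes). Of the 124, 26 were at 0 in all strong libraries and 27 at 0 in all weak libraries. The 53 photosystem and light-harvesting genes summed to 4967 to 5833 FPKM in strong libraries and 3476 to 3554 FPKM in weak libraries. All genes together summed to 464129 to 591204 FPKM in strong and 580337 to 1217400 FPKM in weak libraries, so such sums depend on the scaling. The 10 floral homeotic genes summed to 478 to 501 FPKM in strong and 488 to 603 FPKM in weak libraries. As a set, these markers of the labelled tissue were detected in both clones, with 1 at 0 in all strong libraries. Of 8 tested, 0 rose and 1 fell (12.5%). A wider list took genes with floral homeotic, AGAMOUS, APETALA, SEPALLATA or PISTILLATA anywhere in the description. Of its 43 tested genes, 4 rose and 5 fell (20.9%, against 15.3% of all genes). The 4 that rose were described as ethylene-responsive or RAV transcription factors (PARG10762, PARG08527, PARG19851 and PARG13517), not as floral homeotic genes. Of 4 genes matched as ribonuclease S, 1 was tested, the pistil gene ribonuclease S-3 (PARG20305). That gene reached the minimum level through the weak clone alone. It had 0.164, 0 and 0 FPKM in strong and 4.88, 3.79 and 6.75 FPKM in weak libraries. The part of tissue make-up in the results below was not tested, and in whole flowers fewer cells of a type and less RNA per cell cannot be told apart.

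Plastid ribosomal protein genes were the group with the largest shift among the named compartments. Their mean over the 33 tested genes was 5.46, 5.29 and 5.60 on the log2(FPKM + 1) scale in strong libraries 1, 2 and 3, against 3.27, 3.74 and 5.08 in weak libraries 1, 2 and 3. All strong libraries were above all weak libraries, and weak 3 was closest to them. For the 25 tested mitochondrial-named genes the means were 3.55, 3.36 and 3.59 in strong libraries and 2.74, 2.62 and 3.47 in weak libraries, where weak 3 lay within the strong range. Genes with no compartment named had 4.05, 3.85 and 3.98 in strong libraries and 3.11, 3.01 and 3.96 in weak libraries, again with weak 3 inside the strong range.

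**Figure D1:**
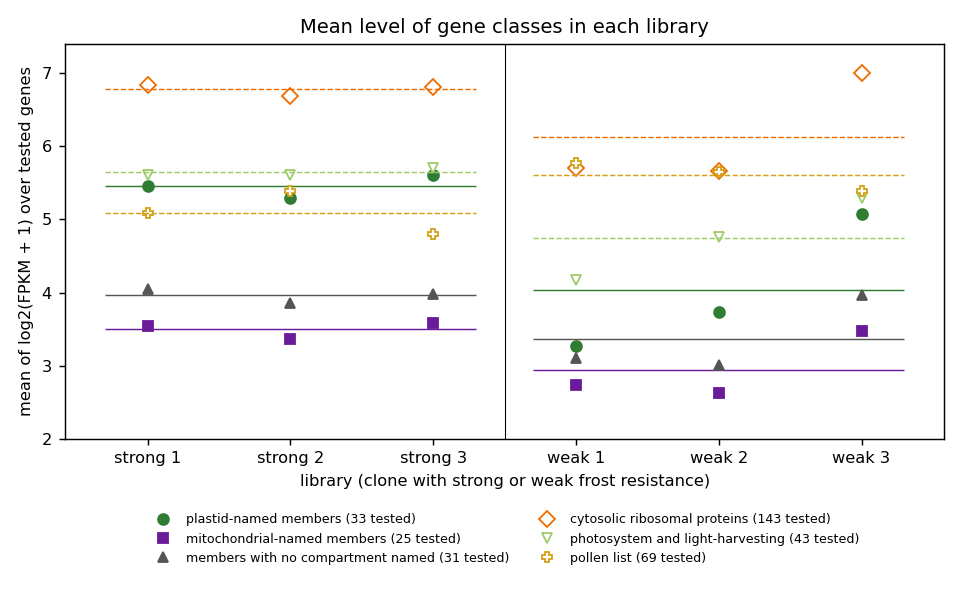
Mean of log2(FPKM + 1) over the tested genes of each class (vertical axis) in each of the 6 libraries (horizontal axis, strong left of weak). Filled symbols are the organelle ribosomal protein classes, open symbols the lists set beside them, and horizontal lines the mean of the 3 libraries of a clone. The plastid-named genes were at 5.29 to 5.60 in strong libraries and at 3.27, 3.74 and 5.08 in weak libraries 1, 2 and 3.

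The cytosolic ribosomal proteins gave a scale for this shift. The 143 tested genes for 40S and 60S proteins had means of 6.84, 6.70 and 6.82 in strong libraries and 5.70, 5.67 and 7.01 in weak libraries, so weak 3 was above all strong libraries there. Taken as a difference within each library, the plastid-named mean was below the cytosolic mean by 1.38, 1.40 and 1.21 in the strong libraries, and by 2.43, 1.93 and 1.93 in the weak libraries. The plastid genes thus lay nearer to the cytosolic genes in every strong library than in any weak library, weak 3 included. Against the mitochondrial-named mean, the plastid mean was higher by 1.91, 1.93 and 2.02 in the strong libraries and by 0.53, 1.12 and 1.61 in the weak libraries. For mitochondrial minus cytosolic genes the groups overlapped, at -3.29, -3.33 and -3.23 in the strong libraries and -2.96, -3.05 and -3.54 in the weak libraries. The summed FPKM of the plastid-named genes was 1870, 1590 and 2031 in strong libraries and 382, 494 and 1354 in weak libraries.

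Of the 94 tested genes, 11 passed the threshold (11.7%), against 15.3% of all tested genes. In the strong clone 8 rose (8.51%, against 7.53% of all genes) and 3 fell (3.19%, against 7.78%), so the share that passed was near the background. The direction was less even: 78 of the 94 differences were above 0 (83%), against 52% for all genes and 88.1% for cytosolic ribosomal proteins. The median was 0.85, against 0.05 for all genes and 0.76 for cytosolic ribosomal proteins. For 37 genes all strong libraries were above all weak libraries (39.4%, background 23.3%), and for 6 they were below (6.38%, background 22.1%), which is 45.7% in either direction and close to the 45.4% of all genes. A difference of at least 1 was reached by 39 genes upwards and 4 downwards, against 17.1% and 18% of all genes. Before adjustment, 48 of the 94 had p below 0.05, against 45.8% of all genes.

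By compartment, 5 of 33 plastid-named genes rose and 0 fell, 1 of 25 mitochondrial-named genes rose and 2 fell, and 2 of 31 genes with no compartment named rose and 1 fell. Of all genes, 7.53% rose and 7.78% fell. S16-2 and the 4 other proteins did not pass. The median difference was 1.5 for plastid-named genes, 0.57 for mitochondrial-named genes and 0.77 for those with no compartment named, beside 0.76 for the cytosolic ribosomal proteins. Differences were above 0 for 31 of 33 plastid-named genes, 18 of 25 mitochondrial-named genes and 25 of 31 of the rest of the 30S and 50S genes. Counts without overlap, strong higher and strong lower, were 21 and 0 for plastid-named genes, 6 and 4 for mitochondrial-named genes, and 10 and 2 for those with no compartment named. As shares of the tested genes these are 63.6% and 0% for plastid-named, 24% and 16% for mitochondrial-named and 32.3% and 6.45% for the others, beside 23.3% and 22.1% of all genes. No test of the difference between compartments was made.

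**Figure D2:**
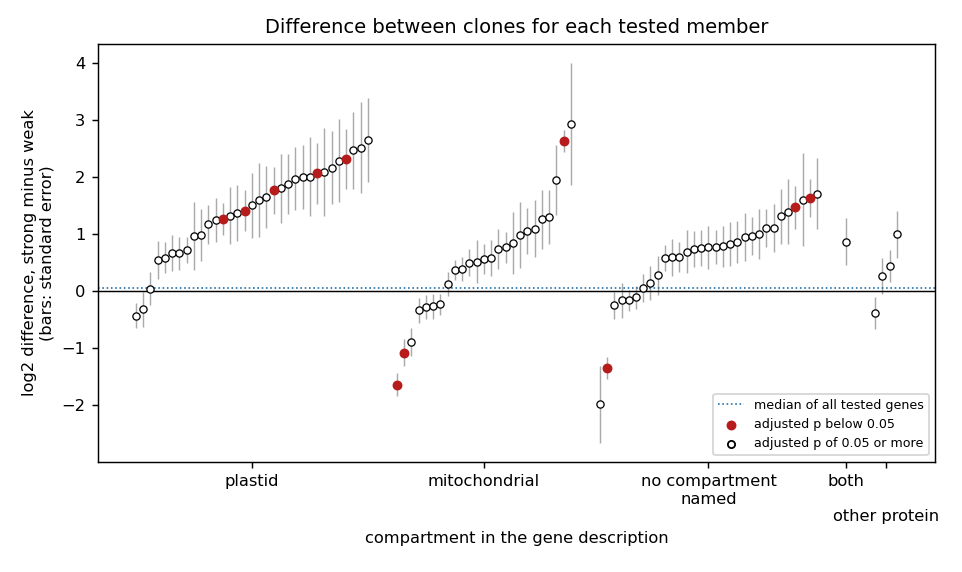
Log2 difference, strong minus weak, for each of the 94 tested genes (vertical axis, bars are the standard error of the fit), ordered by size within the compartment of the description (horizontal axis). Filled points passed the threshold and the dotted line is the median of all tested genes (0.05). Plastid-named genes ran to 2.65 and stood mostly above the line, while the mitochondrial-named genes ran from -1.63 to 2.93.

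The count of calls rested on which libraries were used. Without weak library 3, 74 genes rose and 9 fell (88.3% of the 94), against 38% and 35.4% of all genes (73.4% together). With any other library left out, at most 3 passed. Without strong 1, strong 2 or strong 3 the shares of the 94 were 1.06%, 2.13% and 1.06%, against 1.01%, 2.14% and 1.4% of all genes. Without weak 1 or weak 2 they were 3.19% and 2.13%, against 3.71% and 2.4%. The mitochondrial L2 gene PARG28232 was past the threshold in all 6 of these fits, and it is a gene that could be tested only because it was expressed in the strong clone. The S10 gene PARG26100 was past it in 4 fits, the L13 gene PARG14460 in 2, and the other 8 without weak 3 alone.

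Scaling mattered as well. The deposited values set the typical gene at like levels in all libraries, and a rescaling to equal summed FPKM moved the median of all genes to 0.76. With it 5 genes rose and 0 fell (5.32%, against 9.52% higher and 4.54% lower of all genes, 14.1% together), and all 3 falls were lost. Relative to all genes, the plastid-named median was 1.54 with that scaling and 1.45 with the deposited values. Across the other settings of pseudocount, filter, scaling and variance trend, the share of tested organelle genes that passed was 8.51% with a pseudocount of 0.1 (11.5% of all genes), 8.82% with no filter (9.85%), 6.49% with a mean of at least 5 FPKM (8.85%), 19.1% with quantile scaling (19.4%) and 9.57% without the variance trend (14.2%).

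In the small subunit of the plastid ribosome, 3 of 10 tested genes rose (30%, against 7.53% of all genes). S9 (PARG11426, linkage group 3, 17622177 to 17623947), whose bacterial counterpart reaches the transfer RNA in the decoding site with its tail, had 87.0, 86.2 and 89.5 FPKM in strong libraries and 24.8, 23.4 and 57.6 FPKM in weak libraries. The means were 87.6 ± 1.71 FPKM in the strong clone and 35.2 ± 19.4 FPKM in the weak clone (SD, n = 3 each), and the difference was 1.41 ± 0.36 (limma adjusted p = 0.0474). S9 lies inside a longer gene model on the opposite strand, PARG11424, for an enzyme of sugar acid synthesis, which had 18.8, 17.5 and 20.9 FPKM in strong and 16, 15.4 and 21.5 FPKM in weak libraries. That partner overlapped between the clones. Whether reads were counted by strand is not given, so reads of such partners cannot be told apart.

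S6 alpha (PARG24075, linkage group 7, 11032116 to 11034601), a protein of the platform of the small subunit in bacteria, had 53.3, 49.1 and 62.3 FPKM in strong libraries and 9.48, 12.4 and 30.1 FPKM in weak libraries. Its difference was 1.77 ± 0.41 (limma adjusted p = 0.0391). S13 (PARG08444, linkage group 2, 36752977 to 36754032), which sits in the head of the subunit and touches the large subunit, was at 53.6, 48.0 and 56.6 FPKM in strong and 5.86, 8.91 and 29.9 FPKM in weak libraries, a difference of 2.07 ± 0.54 (limma adjusted p = 0.0485). In all 3 genes the clones did not overlap, and weak 3 was the highest weak library.

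The other small-subunit genes of the plastid did not pass, although most had the same layout. S31 (PARG29513, on a contig), which corresponds to the plastid-specific protein PSRP-4, was the most abundant and had the largest positive difference of this class. It had 163, 126 and 165 FPKM in strong libraries and 9.54, 16.4 and 99.3 FPKM in weak libraries, without overlap, and a difference of 2.52 ± 0.79 (limma adjusted p = 0.0683). S5 (PARG12200), which bears on decoding accuracy in bacteria, had 84.1, 73.2 and 89.7 FPKM in strong and 10.9, 17.4 and 51.5 FPKM in weak libraries (1.88 ± 0.53, limma adjusted p = 0.0565). S1 (PARG04464), an mRNA-binding protein in bacteria, had 57.1, 59.2 and 60.5 FPKM in strong and 14.8, 21.5 and 44.6 FPKM in weak libraries (1.24 ± 0.39, limma adjusted p = 0.0667). S5 and S1 did not overlap between clones. S20 (PARG10764) and PSRP-3, described as 30S protein 3 (PARG13674), did not overlap either, with differences of 1.65 and 0.67.

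S10 of the plastid (PARG09494) overlapped, and strong 2 was low: 78.5, 42.6 and 80.8 FPKM in strong libraries and 11.2, 17.9 and 53.0 FPKM in weak libraries. Its difference was 1.5 ± 0.57 (limma adjusted p = 0.092). S21 (PARG24455) had the sole negative difference of the class, with 1.33, 1.83 and 1.47 FPKM in strong and 3.05, 2.55 and 1.77 FPKM in weak libraries, at levels far below the rest (-0.43 ± 0.22, limma adjusted p = 0.165). Its sign turned to 0.12 with equal summed FPKM.

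In the large subunit of the plastid, 2 of 23 tested genes rose, a share near the background (8.7%, against 7.53% of all genes). L28 (PARG03736, linkage group 2, 3094448 to 3095910) had 55.5, 54.1 and 58.5 FPKM in strong libraries and 4.93, 8.49 and 25.6 FPKM in weak libraries. Its means were 56.0 ± 2.26 FPKM in the strong clone and 13.0 ± 11 FPKM in the weak clone (SD, n = 3 each), a difference of 2.32 ± 0.52 (limma adjusted p = 0.0368). L31 (PARG07264, linkage group 2, 29265192 to 29266987), which bridges the subunits in bacteria, had 29.9, 33.8 and 29.3 FPKM in strong and 9.68, 9.91 and 19.1 FPKM in weak libraries (1.26 ± 0.29, limma adjusted p = 0.0368). Neither gene overlapped between the clones. L31 overlaps a defensin-like gene on the opposite strand over 294 bases, and that gene was at or below 0.207 FPKM in every library.

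Several other large-subunit genes of the plastid had large differences with wide errors and did not pass. L3-1 (PARG17683), which is near the catalytic centre and starts assembly in bacteria, had the largest positive difference of the plastid-named genes, 2.65 ± 0.74 (limma adjusted p = 0.056). Its levels were 41.5, 33.4 and 47.1 FPKM in strong and 1.24, 5.35 and 19.0 FPKM in weak libraries, with no overlap. A second gene of the name, L3-2 (PARG04385), had 23.1, 15.7 and 22.7 FPKM in strong and 10.6, 10.5 and 21.8 FPKM in weak libraries and did overlap (0.55 ± 0.33, limma adjusted p = 0.216). L4 (PARG00453), which lines the exit tunnel, had 51.2, 46.2 and 53.6 FPKM in strong and 2.56, 7.33 and 25.7 FPKM in weak libraries (2.47 ± 0.68, limma adjusted p = 0.0547). The pattern of L9 (PARG01080) was alike, with 53.6, 41.4 and 51.7 FPKM in strong and 2.61, 8.08 and 30.9 FPKM in weak libraries (2.29 ± 0.73, limma adjusted p = 0.0701).

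Among the proteins that bind 5S ribosomal RNA, L18 (PARG04892) had 92.8, 64.8 and 98.6 FPKM in strong libraries and 7.89, 13.3 and 52.5 FPKM in weak libraries, a difference of 2.17 ± 0.64 (limma adjusted p = 0.0619). L5 (PARG18363) was among the most abundant genes, with 94.3, 85.1 and 102 FPKM in strong and 51.1, 52.7 and 87.4 FPKM in weak libraries. Its difference was smaller, 0.59 ± 0.27 (limma adjusted p = 0.129), and weak 3 lay within the strong range. L10 (PARG20266), the base of the stalk that carries L12, had 33.6, 25.6 and 42.7 FPKM in strong and 3.52, 6.20 and 19.6 FPKM in weak libraries (1.97 ± 0.55, limma adjusted p = 0.057). L12 itself (PARG12933) did not follow: 6.54, 12.7 and 9.66 FPKM in strong and 10.3, 6.92 and 10.3 FPKM in weak libraries, with a difference of 0.04 ± 0.29 (limma adjusted p = 0.913). Its model overlaps a second L12 model on the opposite strand (PARG12934), which was at 0 in all libraries.

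The remaining large-subunit genes of the plastid spanned differences of -0.32 to 2.08. L15 (PARG06687) had 73.1, 75.0 and 78.9 FPKM in strong and 8.76, 14.2 and 46.3 FPKM in weak libraries (2.0 ± 0.55, limma adjusted p = 0.0554). L29 (PARG28868), which lies at the exit of the tunnel in bacteria, had 81.5, 67.2 and 94.6 FPKM in strong and 10.3, 17.1 and 60.8 FPKM in weak libraries (1.80 ± 0.60, limma adjusted p = 0.0748). Neither overlapped between clones. L21 (PARG14630) had 93.4, 59.1 and 93.3 FPKM in strong and 6.05, 14.2 and 64.5 FPKM in weak libraries, so that weak 3 passed strong 2. L24 (PARG10516), L6 (PARG04435), L34 (PARG12106) and L35 (PARG04415) kept all strong libraries above all weak libraries, with differences of 2.01, 1.17, 0.72 and 1.37. L1 (PARG16453), L11 (PARG24276), L17 (PARG24357) and L27 (PARG12751) overlapped, with differences of 1.32, 1.6, 0.97 and 0.66.

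The most abundant plastid large-subunit gene was that of the plastid-specific protein PSRP-6, described as 50S protein 6 (PARG08740). It had 134, 121 and 155 FPKM in strong libraries and 46.7, 48.1 and 142 FPKM in weak libraries, with weak 3 inside the strong range (0.98 ± 0.45, limma adjusted p = 0.134). A second gene of that description (PARG15423) was low, with 4.26, 3.16 and 4.15 FPKM in strong and 4.20, 3.62 and 8.04 FPKM in weak libraries. Its difference of -0.32 ± 0.30 (limma adjusted p = 0.415) was the largest negative one of the class and turned to 0.34 with equal summed FPKM.

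**Figure D3:**
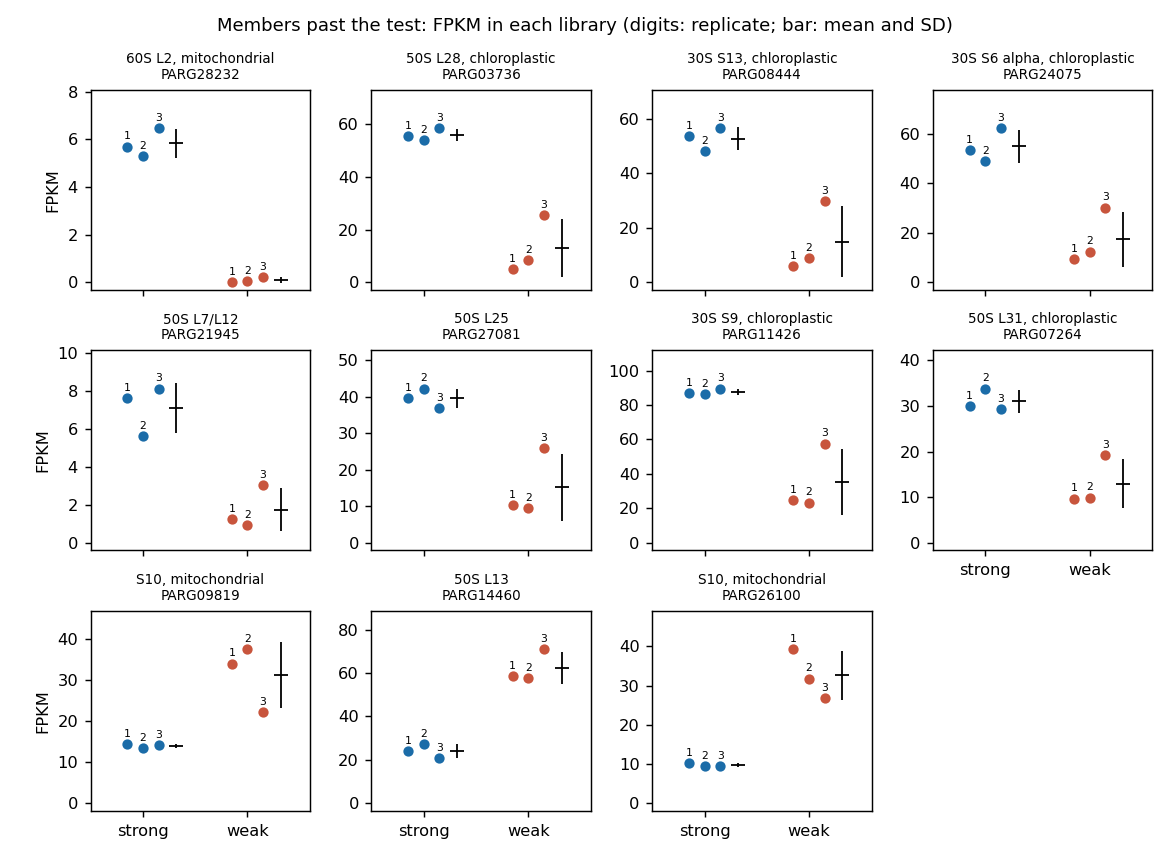
FPKM in each library for the 11 genes past the threshold, strong left and weak right in each panel, with the replicate number at each point and the mean and SD (n = 3) beside it. In the 5 plastid-named panels and those of L7/L12 and L25, weak library 3 was the highest weak library and below all strong libraries. PARG28232 had 5.31 to 6.47 FPKM in strong and 0 to 0.229 FPKM in weak libraries.

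In the small subunit of the mitochondrial ribosome, 0 of 10 tested genes rose and 2 fell (20%, against 7.78% of all genes). Both were genes for S10, a protein of the head of the subunit. PARG26100 (linkage group 8, 6836346 to 6839525) had 10.3, 9.37 and 9.43 FPKM in strong libraries and 39.3, 31.8 and 26.8 FPKM in weak libraries. Its means were 9.71 ± 0.528 FPKM in the strong clone and 32.6 ± 6.29 FPKM in the weak clone (SD, n = 3 each), a difference of -1.63 ± 0.20 (limma adjusted p = 0.00835). PARG09819 (linkage group 3, 5054804 to 5057001) had 14.4, 13.4 and 14.2 FPKM in strong and 34.1, 37.6 and 22.3 FPKM in weak libraries (-1.08 ± 0.24, limma adjusted p = 0.0340). Neither gene overlapped between the clones, and weak 3 was the lowest weak library in both. Together they summed to 24.7, 22.7 and 23.6 FPKM in strong and 73.4, 69.4 and 49.1 FPKM in weak libraries. With equal summed FPKM the limma adjusted p was 0.0655 for PARG26100, the highest of a range from 0.000206, and 0.326 for PARG09819, the highest of a range from 0.000333.

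S19 of the mitochondrion (PARG17832), which pairs with S13 in the head of the bacterial subunit, was also lower without passing. It had 14.1, 16.7 and 11.7 FPKM in strong libraries and 35.0, 26.2 and 21.4 FPKM in weak libraries, with no overlap (-0.90 ± 0.25, limma adjusted p = 0.0547). Of 4 genes for S14, PARG21529 carried nearly all of the level, with 89.6, 72.7 and 84.9 FPKM in strong and 73.0, 67.6 and 85.8 FPKM in weak libraries. It was the most abundant mitochondrial-named gene, and the clones overlapped (0.13 ± 0.21, limma adjusted p = 0.632). The 3 other S14 genes were between 0.993 and 5.23 FPKM in all libraries, and their differences were -0.28, -0.26 and 0.57.

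S11 of the mitochondrion had 2 genes side by side on linkage group 6. PARG21724 is named after NFD3, a gene that the female gametophyte of Arabidopsis needs for the fusion of its polar nuclei. It had 10.7, 5.80 and 12.5 FPKM in strong and 2.91, 1.46 and 6.49 FPKM in weak libraries. Its difference of 1.30 ± 0.47 (limma adjusted p = 0.0838) was the largest positive one of the class. The second gene, PARG21722, on the opposite strand and overlapping it over 549 bases, had 1.46, 2.23 and 2.0 FPKM in strong and 0.464, 0.375 and 1.37 FPKM in weak libraries. Clones overlapped for PARG21724 and not for PARG21722 (0.77 ± 0.27, limma adjusted p = 0.0811). S34 (PARG00573), named by its domain alone, overlapped too (0.52 ± 0.38).

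In the large subunit of the mitochondrial ribosome, 1 of 15 tested genes rose, a share near the background (6.67%, against 7.53% of all genes). L2 is a core protein next to the catalytic centre of the ribosome, and 4 genes carried its mitochondrial name. PARG28232 (linkage group 8, 21477465 to 21479441) had 5.69, 5.31 and 6.47 FPKM in strong libraries, from 191, 152 and 256 reads. In weak libraries it had 0, 0.0625 and 0.229 FPKM, from 0, 1 and 7 reads. The means were 5.82 ± 0.590 FPKM in the strong clone and 0.0970 ± 0.118 FPKM in the weak clone (SD, n = 3 each). The difference of 2.64 ± 0.19 (limma adjusted p = 0.00226) had the smallest adjusted p among the 94 genes and was past the threshold in all alternatives in which the gene was tested, with adjusted p from 7.87e-05 to 0.0288. It was also the sole gene of the 94 that had reached the minimum level through the strong clone alone, as 386 of all tested genes had, so it could not have been tested without a difference. Weak library 3, which was near the strong libraries for most of the 94 genes, was with the weak libraries here.

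The other L2 genes did not share this pattern. PARG28184, also on linkage group 8, had 10.6, 8.53 and 10.9 FPKM in strong and 2.08, 4.19 and 13.3 FPKM in weak libraries (0.84 ± 0.54, limma adjusted p = 0.244). PARG15031 on linkage group 4 was slightly lower in the strong clone, with 7.4, 6.71 and 6.69 FPKM in strong and 8.92, 8.20 and 7.81 FPKM in weak libraries, without overlap (-0.23 ± 0.18, limma adjusted p = 0.318). PARG23415 was at 0 in all libraries. Summed over the 4 genes, L2 had 23.7, 20.6 and 24 FPKM in strong and 11, 12.4 and 21.3 FPKM in weak libraries, so that weak 3 lay within the strong range. How reads shared by these genes were assigned is not given. PARG28232 overlaps by 328 bases a gene on the opposite strand for a subunit of acetolactate synthase (PARG28231), an enzyme of branched-chain amino acid synthesis. That gene had 3.58, 2.18 and 2.29 FPKM in strong and 1.10, 1.40 and 1.88 FPKM in weak libraries and did not pass (0.57 ± 0.24, limma adjusted p = 0.110).

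**Figure D4:**
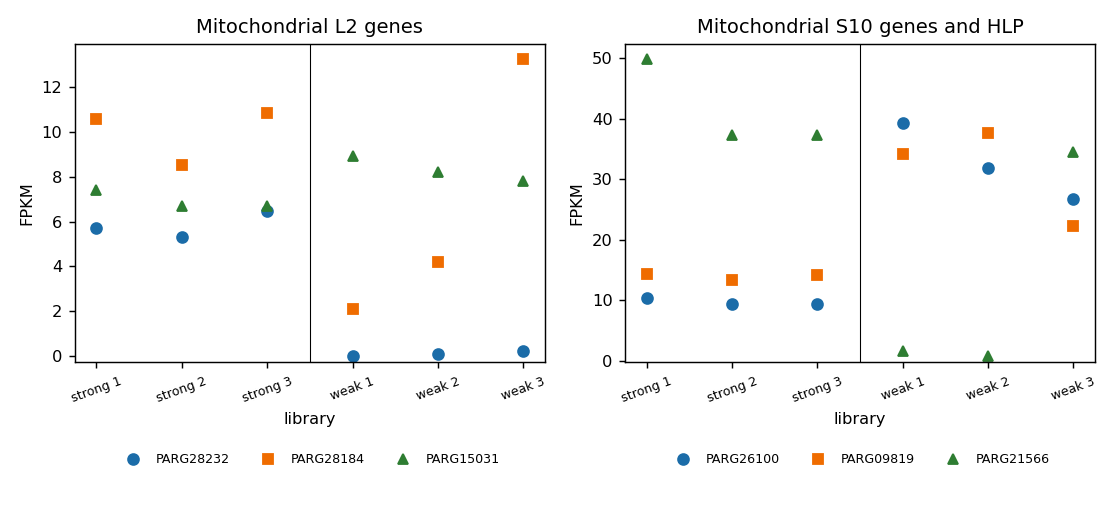
FPKM in each library (strong left of weak) of the 3 expressed mitochondrial L2 genes (left panel) and of the 2 mitochondrial S10 genes with HLP, PARG21566 (right panel). PARG28232 was near 0 in all 3 weak libraries, PARG15031 was at 6.69 to 8.92 FPKM throughout, and HLP was at 34.5 FPKM in weak library 3 against 1.66 and 0.794 FPKM in weak libraries 1 and 2.

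HLP (PARG21566, linkage group 6), named after HUELLENLOS PARALOG of Arabidopsis, is a mitochondrial L14 protein. Its Arabidopsis relative HUELLENLOS is needed for the outgrowth of ovules. HLP had 49.9, 37.2 and 37.4 FPKM in strong libraries, from 1055, 672 and 932 reads, and 1.66, 0.794 and 34.5 FPKM in weak libraries, from 16, 8 and 665 reads. This was the largest difference of all 94 genes, 2.93 ± 1.07, and it did not pass (limma adjusted p = 0.0864). Weak 1 and weak 2 were far below the strong libraries, while weak 3 was just below the lowest of them.

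The other large-subunit genes of the mitochondrion differed by -0.34 to 1.94. L53 had 2 genes, named by their domain, on linkage group 2. PARG05170 had 6.30, 4.64 and 8.05 FPKM in strong and 0, 0.283 and 4.09 FPKM in weak libraries, with no overlap (1.94 ± 0.62, limma adjusted p = 0.0687). PARG07184 had 17.4, 10.4 and 17.7 FPKM in strong and 5.97, 3.94 and 11.8 FPKM in weak libraries and overlapped (1.05 ± 0.40). L6 (PARG26600) and L37 (PARG01298) did not overlap, with differences of 0.37 and 0.50. L51 (PARG05007) was the second most abundant large-subunit gene of the mitochondrion, with 31.6, 28.6 and 30.4 FPKM in strong and 20.4, 19.8 and 29.4 FPKM in weak libraries (0.39 ± 0.21, limma adjusted p = 0.184). L17, L21, L27 and 2 genes for L19 overlapped and differed by 0.58 to 1.26. L47 (PARG24680) had the largest negative difference of the class, with 19.5, 21.6 and 19.5 FPKM in strong and 29.6, 29.5 and 19.3 FPKM in weak libraries (-0.34 ± 0.22, limma adjusted p = 0.257), and turned to 0.47 with equal summed FPKM.

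Among the 31 genes with no compartment named, L7/L12 was the largest family, with 7 genes. L7/L12 forms the stalk that recruits translation factors to the ribosome. PARG21945 (linkage group 6, 14331183 to 14336138) rose, with 7.61, 5.62 and 8.12 FPKM in strong and 1.24, 0.937 and 3.03 FPKM in weak libraries. The difference was 1.63 ± 0.33 (limma adjusted p = 0.0272), without overlap. The 6 other genes did not pass and differed by -0.16 to 1.31. Of these, PARG27277 on linkage group 8 had 19.9, 15.3 and 16.1 FPKM in strong and 4.50, 3.34 and 15 FPKM in weak libraries, whereas PARG27017 had 6.48, 6.29 and 6.08 FPKM in strong and 7.67, 6.28 and 7.46 FPKM in weak libraries. The family summed to 83.3, 60.6 and 76.0 FPKM in strong and 28.1, 25.6 and 68.0 FPKM in weak libraries.

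L25 (PARG27081, linkage group 8, 14793744 to 14795136), which binds 5S ribosomal RNA in bacteria, rose as well. It had 39.6, 42.2 and 36.9 FPKM in strong and 10.2, 9.40 and 25.8 FPKM in weak libraries (1.47 ± 0.38, limma adjusted p = 0.0484), without overlap. It lies inside 2 much longer models without description on the same strand, which did not pass. L13 (PARG14460, linkage group 4, 11553588 to 11556688), needed early in assembly of the bacterial large subunit, fell. It had 24.1, 27.1 and 20.9 FPKM in strong and 58.5, 57.7 and 71.1 FPKM in weak libraries, a difference of -1.34 ± 0.20 (limma adjusted p = 0.0124). Here weak 3 was the weak library farthest from the strong libraries. With equal summed FPKM its limma adjusted p was 0.251, the highest of a range from 0.000708.

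A single gene outweighed all others of the 104 in level. PARG20124 on linkage group 6 is described as 50S protein L24, and its listed domains are a KOW domain, as in ribosomal L24, and the pollen allergen Ole e 6 domain. It had 477, 754 and 314 FPKM in strong libraries and 3026, 2735 and 842 FPKM in weak libraries, with no overlap (-1.98 ± 0.68, limma adjusted p = 0.077). The summed genes of the pollen list had 11688, 17713 and 9066 FPKM in strong and 49758, 43848 and 15794 FPKM in weak libraries. In that sum, too, weak 3 was the lowest weak library and strong 2 the highest strong library, and there the clones overlapped. The part of pollen RNA in this gene's level was not tested. The second L24 gene with no compartment, PARG09163, had 16.2, 20.2 and 14.6 FPKM in strong and 9.89, 9.51 and 13.7 FPKM in weak libraries.

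S6 with no compartment named (PARG04475) had 24.3, 19.3 and 22.4 FPKM in strong and 2.87, 3.44 and 19.1 FPKM in weak libraries, the largest positive difference of this class at 1.71 ± 0.62 (limma adjusted p = 0.0856). L20 (PARG08966), an assembly protein in bacteria, varied most among weak libraries of the genes with no compartment named, with 12.1, 13.3 and 13.2 FPKM in strong and 4.34, 0.244 and 13.2 FPKM in weak libraries (1.61 ± 0.82, limma adjusted p = 0.161). L32 (PARG03397) was alike, with 17.9, 15.8 and 18.0 FPKM in strong and 2.84, 3.80 and 17.1 FPKM in weak libraries. L17 (PARG01615), second in level in this class, had 43.4, 47.6 and 41.1 FPKM in strong and 65.2, 55.5 and 39.5 FPKM in weak libraries (-0.25 ± 0.24, limma adjusted p = 0.413). Its sign turned to 0.57 with equal summed FPKM and to 0.13 with quantile scaling. S5 (PARG19807), S17 (PARG01312), L4 (PARG16646 and PARG12539) and L28 (PARG08001) differed by -0.16 to 0.28. The 11 genes of this class for L1, L15, L18, L22, L34, S1, S9, S15 and S17 (PARG01311) differed by 0.59 to 1.11, with p above the threshold.

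For 15 proteins, a plastid-named gene could be set beside genes of the same protein number that share a Pfam domain with it and lack the plastid name. This grouping was chosen after the values were seen and has no test. It gave 24 pairs, in which genes recur, and the difference was larger for the plastid-named gene in 19 and smaller in 5. The 5 were all of L12, counted with its bacterial name L7/L12: plastid L12 differed by 0.04 and the L7/L12 genes with a shared domain by -0.16 to 1.63. Over the 24 pairs, plastid-named minus other had a median of 0.81, from -1.59 for L12 to 3.99 for the L24 gene with the pollen allergen domain. For L4, the plastid gene differed by 2.47 and the 2 others by 0.05 and 0.14. For S5 the plastid gene differed by 1.88 and the other by -0.11, and for L28 by 2.32 and 0.28. For S10 the plastid gene stood at 1.5 and the mitochondrial genes at -1.63 and -1.08. For L1 and L34 the genes were close, at 1.32 against 0.77 and 1.11, and at 0.72 against 0.59. The closest pair was that of S6, at 1.77 for the plastid gene and 1.71 for the other.

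**Figure D5:**
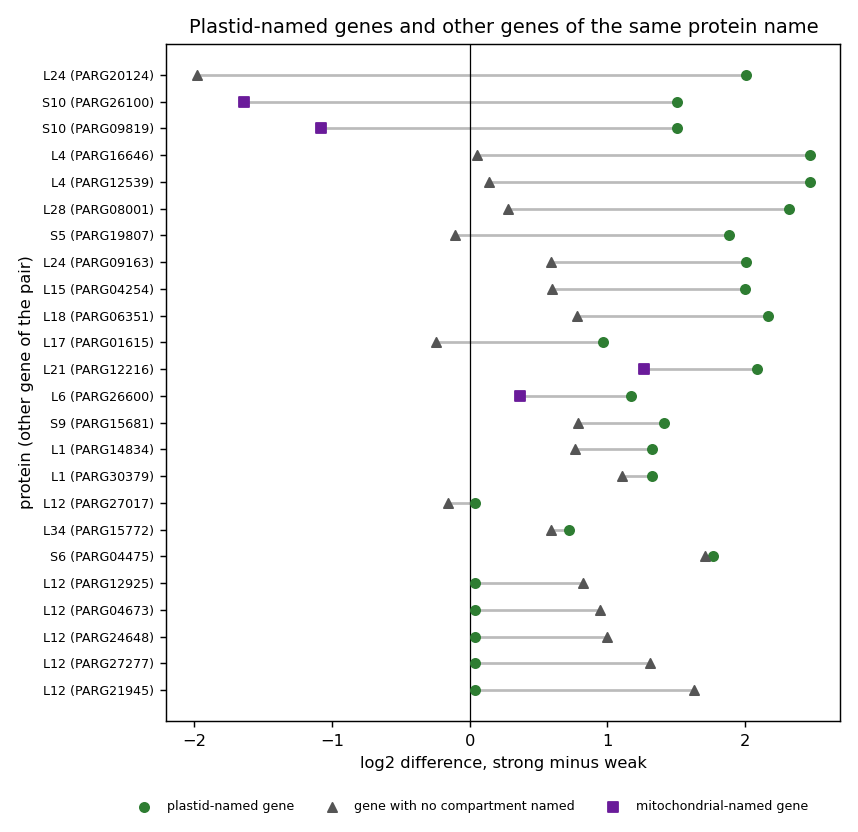
Log2 difference, strong minus weak (horizontal axis), of the plastid-named gene and of another gene of the same protein number and domain, joined by a line, for 24 pairs (vertical axis, named by the other gene). The plastid-named gene lay to the right in 19 pairs and to the left in 5, all of L12.

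None of the 4 proteins that are not ribosomal by name passed the threshold. The mitochondrial manganese superoxide dismutase PARG19190, an antioxidant enzyme whose entry also lists a ribosomal S26e domain, had 338, 293 and 345 FPKM in strong and 246, 217 and 369 FPKM in weak libraries (0.26 ± 0.32, limma adjusted p = 0.515). A second gene of the name, PARG00363, had 76.1, 77.7 and 73.3 FPKM in strong and 24.8, 28.1 and 74.0 FPKM in weak libraries (1.0 ± 0.42, limma adjusted p = 0.108). Both overlapped between the clones. The syntaxin and dnaJ A6 differed by -0.38 and 0.44. S16-2 of both organelles had 41.3, 34.8 and 38.6 FPKM in strong and 14.2, 14.4 and 40.9 FPKM in weak libraries (0.87 ± 0.41, limma adjusted p = 0.141).

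Other parts of organelle gene expression were set beside the ribosomal proteins. Of 44 tested organelle translation factors and tRNA ligases, 1 rose and 2 fell (6.82%, against 15.3% of all genes). The risen gene was a chloroplastic elongation factor Tu (PARG12860), which delivers aminoacyl-tRNA, with 6.04, 8.64 and 8.79 FPKM in strong and 1.04, 1.06 and 4.19 FPKM in weak libraries (1.64 ± 0.41, limma adjusted p = 0.0447). Elongation factor G-2 (PARG23236) and a lysine tRNA ligase (PARG30097) fell by 0.90 and by 1.46. Of 14 tested plastid transcription genes, 2 rose and 0 fell (14.3%). They were pTAC16 (PARG00632), a protein of the plastid transcription complex, with 52.9, 47.1 and 57.3 FPKM in strong and 21.9, 25.2 and 34.0 FPKM in weak libraries, and MTERF8 (PARG19706). MTERF8 had 24.5, 20.6 and 24 FPKM in strong and 6.75, 7.88 and 6.78 FPKM in weak libraries (1.56 ± 0.18, limma adjusted p = 0.00725), so weak 3 was with the weak libraries. Of 128 tested organelle pentatricopeptide proteins, which process organelle RNA, 3 rose and 2 fell (3.91%).

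Of 43 tested photosystem and light-harvesting genes, 16 rose and 3 fell (44.2%, against 15.3% of all genes), and their median difference was 1.31, beside 1.5 for the plastid ribosomal proteins. Of 143 tested cytosolic ribosomal proteins, 1 rose and 2 fell (2.1%). Those medians stand beside the 0.05 of all genes and -0.91 of the pollen list. Weak library 3 was below all strong libraries for 21 of 33 plastid-named, 7 of 25 mitochondrial-named and 11 of 143 cytosolic ribosomal protein genes. It was above all strong libraries for 1, 7 and 94 of them. Over all genes it was below for 32.8% and above for 34.1%, so the mitochondrial-named shares of 28% and 28% were near the background.

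The 104 genes lay on all 8 linkage groups (100 genes) and on contigs (4 genes). Linkage group 2 held 24, which is 23.1% of them, and 19.7% of all genes lie there. Their median length was 1039.5 bases, against 1251 for all genes. In all, 17 descriptions were shared by 45 of the genes, and 27 overlapped another gene model, 6 of them another of the 104. The overlapping pairs were the plastid L12 pair, the mitochondrial S11 pair and an S17 pair (PARG01311 and PARG01312), each on opposite strands.

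The 10 genes that were not tested had not reached 1 FPKM in 3 libraries, and some of them were clearly detected. The L12 gene PARG12934 and the L2 gene PARG23415 were at 0 in all libraries, which allows up to 3 reads a library. Genes for plastid S1 (PARG07950 and PARG07952), plastid L32 (PARG04393) and mitochondrial S31 (PARG21649) were at or below 0.552 FPKM in every library. A plastid L17 gene (PARG02688) had 1.45, 1.70 and 0.786 FPKM in strong and 0.255, 0 and 0.254 FPKM in weak libraries. Mitochondrial S4 (PARG30344) had 0.792, 1.11 and 1.43 FPKM in strong and 0.348, 0.554 and 0.463 FPKM in weak libraries. Both were without overlap. Plastid L12 (PARG24091) and plastid S16 (PARG14170) overlapped, with at most 2.34 FPKM.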

How the data were processed

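Expression was measured by RNA sequencing in 6 libraries, 3 of each clone, and groups and replicate numbers are those of the labels. The authors deposited FPKM values for 31889 genes with positions, lengths and descriptions, and gene names are similarities taken from those descriptions. CASAVA, RSEM and Bowtie2 are listed as tools, per the submitters' processing notes. No version, genome build or strand setting was given in the sources used here. In each library 100% of positive values matched whole reads within 0.01 read, which gave the reads quoted. All pairs of libraries differed by more than sampling noise.

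All genes that reached 1 FPKM in 3 or more of the 6 libraries were fitted with limma 3.58.1 (R 4.3.3, lmFit and eBayes with trend) on log2(FPKM + 1), a scale that understates changes of low genes. The test, without a replicate block, was checked on made data with known changes. All p-values were adjusted over all 16462 genes. The genes described here and the lists set beside them were chosen with earlier results of these data known. Genes given with full values were PARG28232, all past the threshold, and in each class the 2 most abundant and the largest difference in each direction, 25 in all. The other genes named were chosen after their values were seen. Alternatives covered pseudocount, filter, scaling, variance trend, replicate block and each library left out, where a clone with 2 libraries remained.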

Additional observations from a re-analysis of the deposited data

How the results depend on the processing

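Counts are of genes higher and lower in the strong clone, and the cause of each change was not tested. As reported, 8 of the 94 organelle ribosomal protein genes rose and 3 fell, and 1239 and 1281 of all genes. With a pseudocount of 0.1, 5 rose (plastid-named 3, no compartment 1), and 796 of all genes. With no filter, and without the variance trend, 1 gene with no compartment rose in each fit, beside 1164 and 1126 of all genes. With a mean of at least 5 FPKM, 2 rose (plastid-named 2, mitochondrial-named 0, no compartment 0), all genes gave 430 higher and 585 lower, and the median of all genes turned to -0.078. PARG28232 and PARG21945 were not tested there.

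With equal summed FPKM, 5 rose and 0 fell (higher: plastid-named 3, no compartment 1, and lower: mitochondrial-named 0, no compartment 0). Among all genes, 1568 rose and 747 fell. Of all calls, 67.7% were then higher, against 49.2% as deposited. Medians moved to 1.51 for the 94 genes, 2.3 for plastid-named, 1.23 for mitochondrial-named and 1.43 for no compartment, with all genes at 0.76. PARG24455 turned to 0.12, PARG15423 to 0.34, PARG24680 to 0.47 and PARG01615 to 0.57. With quantile scaling 14 rose (plastid-named 11), beside 1490 of all genes, and PARG01615 turned to 0.13.

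Same-numbered libraries of the clones had deviations correlated by -0.236, 0.588 and 0.605 over genes, so the numbers were not taken to pair them, and not every library correlated best with its own number. With the replicate number as a block, 38 rose and 5 fell (higher: plastid-named 23, mitochondrial-named 7, no compartment 8; lower: no compartment 2), and 2997 and 3442 of all genes.

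With each library left out in turn, 1 to 74 rose and 0 to 9 fell. Ranges were 0 to 30 higher and 0 to 1 lower for plastid-named genes, 1 to 17 and 0 to 4 for mitochondrial-named, and 0 to 24 and 0 to 3 for no compartment. For all genes they were 90 to 6248 and 76 to 5827. The upper ends came without weak library 3. Medians kept their sign in all fits, at 0.67 to 1.29 for the 94 genes, 1.11 to 2.11 for plastid-named, 0.39 to 0.88 for mitochondrial-named and 0.53 to 1.10 for no compartment. Depth limits genes under about 1 FPKM, where a value rests on few reads.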
